A study of Homo sapiens with 18 samples.

Results

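The regions described here are intragenic windows of very long genes, that is, 1-kb windows of the deposited accessibility table on chromosomes 1 to 22 whose centre lay inside a protein-coding gene longer than 500 kb and more than 5 kb from every protein-coding transcription start site (GENCODE annotation, GRCh37/hg19). They numbered 3553 of the 89428 windows in the table, or 3.97%, and lay in 301 of the 310 genes of that length. The choice rested on gene length and position and on no difference between lines, although a window entered the table only where it exceeded 2 FPKM (fragments per kilobase of window, scaled to the mapped reads of the library) in at least 2 libraries, so every window was accessible somewhere. Accessibility was read out by ATAC-seq, in which the Tn5 transposase inserts sequencing adapters into open DNA, in 3 pairs of human ovarian cancer cell lines, with 3 libraries of each line. A2780, labelled as endometrial/ovarian, is sensitive to platinum, and CP70 is its resistant derivative, obtained in culture. PEA1 (sensitive) and PEA2 (resistant) came from a patient with high-grade serous ovarian cancer (HGSOC) before platinum chemotherapy and after relapse. PEO1 (sensitive) and PEO4 (resistant) came from another such patient before and after resistance arose, in both cases after platinum treatment had been given. All 6 lines were grown in RPMI-1640 with glutamine and 10% fetal bovine serum, and the labels give no drug treatment. Each group is 1 line, and the labels do not say that its libraries came from separate cultures, so p-values measure only the spread between libraries.

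Very long genes consist almost wholly of introns, and introns hold many of the distal regulatory elements, or enhancers, that transcription factors open in a cell-type-specific way. Many genes of this size encode adhesion molecules, channels and synaptic proteins used by neurons. Several, among them FHIT, WWOX and CCSER1, span common fragile sites, stretches of late-replicating DNA that break under replication stress and are often deleted in tumours.

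To show what the windows look like, the central 300 bases are given of the window with the largest excess over the mean of the other 5 lines, for every line except CP70, and of 1 window above 2 FPKM in all 6 lines. The bases are from GRCh37, plus strand, 5′ to 3′. Capitals mark matches, on either strand, to 7 short motifs searched: AP-1 (TGANTCA), TEAD (GGAATG), RUNX (TGTGGT), the motif of GATA factors (AGATAA), SOX (ACAATG), CTCF (CAGGGGGC) and the E-box (CACGTG). The first is from an intron of LRBA, a protein of vesicle trafficking, at chr4:151493751-151494050, and was highest in A2780. The second is from FRMD4A, a scaffold protein of epithelial polarity, at chr10:13851351-13851650, highest in PEA1. The third is from WWOX, an oxidoreductase gene at a fragile site, at chr16:78245451-78245750, highest in PEA2. The fourth is from NAALADL2 at chr3:174868551-174868850, highest in PEO1, and the next from LRP1B, a receptor of the low-density lipoprotein receptor family, at chr2:141015051-141015350, highest in PEO4. The last is from HIVEP3, a zinc finger transcription factor, at chr1:42501051-42501350, above 2 FPKM in all lines.
LRBA: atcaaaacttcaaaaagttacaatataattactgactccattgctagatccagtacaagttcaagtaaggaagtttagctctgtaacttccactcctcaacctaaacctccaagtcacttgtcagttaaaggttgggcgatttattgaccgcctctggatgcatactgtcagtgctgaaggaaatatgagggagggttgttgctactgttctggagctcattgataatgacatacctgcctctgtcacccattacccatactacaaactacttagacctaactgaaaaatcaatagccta
FRMD4A: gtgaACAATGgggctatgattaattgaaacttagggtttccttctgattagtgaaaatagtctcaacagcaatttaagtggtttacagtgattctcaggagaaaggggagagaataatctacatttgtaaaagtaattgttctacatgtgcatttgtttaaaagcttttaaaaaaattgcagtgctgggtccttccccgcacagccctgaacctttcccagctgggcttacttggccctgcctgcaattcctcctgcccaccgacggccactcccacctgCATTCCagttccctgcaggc
WWOX: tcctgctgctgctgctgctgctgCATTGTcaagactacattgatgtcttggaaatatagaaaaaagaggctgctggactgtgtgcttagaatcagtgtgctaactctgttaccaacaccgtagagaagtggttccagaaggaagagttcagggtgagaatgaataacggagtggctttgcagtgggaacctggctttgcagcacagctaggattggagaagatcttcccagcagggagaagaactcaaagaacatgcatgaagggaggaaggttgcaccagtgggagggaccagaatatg
NAALADL2: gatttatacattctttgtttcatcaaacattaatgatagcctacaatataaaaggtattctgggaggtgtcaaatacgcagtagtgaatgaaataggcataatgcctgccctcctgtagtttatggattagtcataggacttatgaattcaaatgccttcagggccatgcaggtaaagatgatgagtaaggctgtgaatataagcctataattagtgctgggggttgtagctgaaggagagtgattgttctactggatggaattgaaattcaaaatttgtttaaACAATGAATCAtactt
LRP1B: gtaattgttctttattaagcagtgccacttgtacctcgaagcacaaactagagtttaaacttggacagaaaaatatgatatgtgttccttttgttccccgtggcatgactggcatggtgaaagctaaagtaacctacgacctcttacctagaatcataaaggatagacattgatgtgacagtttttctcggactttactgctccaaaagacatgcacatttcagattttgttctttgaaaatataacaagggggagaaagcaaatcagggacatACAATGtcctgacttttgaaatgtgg
HIVEP3: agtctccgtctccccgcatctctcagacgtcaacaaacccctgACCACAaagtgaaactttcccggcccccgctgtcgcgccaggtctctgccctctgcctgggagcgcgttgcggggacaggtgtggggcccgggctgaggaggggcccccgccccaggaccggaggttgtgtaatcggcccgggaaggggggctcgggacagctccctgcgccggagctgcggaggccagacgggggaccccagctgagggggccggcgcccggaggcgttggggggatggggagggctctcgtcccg
The stretch from LRBA held no match to any of the 7 motifs. FRMD4A held a SOX and a TEAD match, WWOX and LRP1B a SOX match each, and HIVEP3 a RUNX match, while in NAALADL2 a SOX and an AP-1 match overlapped. GC content was 36.0% in the NAALADL2 stretch and 72.0% in that of HIVEP3, the widest contrast among the 6 stretches. A match is a description of these letters and not evidence of binding.

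Over the full 1-kb windows, the AP-1 motif was present in 56.5% of the 3553 windows and in 38.3% of all windows of the table. The GATA motif was in 49.8% against 35.0%, SOX in 46.5% against 34.1%, RUNX in 54.6% against 46.6% and TEAD in 52.5% against 45.8%. The CTCF motif was less frequent, at 4.503% against 8.75%, and the E-box likewise, at 10.8% against 14.9%. AP-1 was found in 53.9% of windows chosen in the same way from genes of 100 to 500 kb, in 43.6% of those from genes of up to 100 kb and in 58.0% of windows over 500 kb from any protein-coding gene (gene deserts). For AP-1, GATA, SOX, CTCF and the E-box, the share in very long genes lay between that in genes of 100 to 500 kb and that in gene deserts. Base composition differed in the same order, with a median GC content of 42.7% in very long genes, 45.5% and 52.0% in the shorter gene classes, 40.3% in gene deserts and 50.4% in the whole table, and its part in the motif shares was not tested.

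Accessible windows were sparse in these genes. Of all 1-kb windows of the genome that met the rule on position, 1.30% were in the table, compared with 1.86% in genes of 100 to 500 kb, 2.10% in genes of up to 100 kb, 0.456% in gene deserts and 2.60% genome-wide. The windows lay a median of 99.3 kb from the nearest protein-coding start, 179 of them (5.04%) overlapped an exon and 47 an untranslated region, against 33.3% exonic windows in the table. The median observed to expected CpG ratio was 0.195, against 0.308 in the table. Neighbouring windows share 100 bases, and 1877 windows (52.8%) adjoined another, so that they formed 2531 separate runs of at most 6 windows. Windows of the same run are not independent.

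The number of windows differed widely between genes of similar length. The median gene had 10, 15 genes had 1, and TRAPPC9, a subunit of a vesicle-tethering complex and of NF-kB signalling, had 93, or 11.9% of its positions. The 5-Mb stretch around the TRAPPC9 windows named below was also dense, with 993 windows that averaged more than 1 FPKM in the PEA pair. Stretches around windows named in other genes held at most 249. Whether TRAPPC9 was denser than its surroundings was not tested. GSE1, a chromatin-associated protein, had 36 (7.03%) and SORCS2, a sorting receptor, had 31 (5.42%). At the other end, the longest gene, RBFOX1 (2474 kb), a neuronal splicing factor, had 1 window, or 0.0377% of its positions, whereas CNTNAP2 (2305 kb), a neurexin-like adhesion protein, had 60, or 2.37%. The fragile-site genes were also spread, with 0.244% in WWOX, 0.360% in FHIT, 0.817% in CCSER1 and 2.05% in MACROD2. When each gene was divided into 10 equal intervals from its 5′ to its 3′ end, the share of positions in the table was lowest in interval 4, at 1.06%, was 1.60% in interval 9 and reached 2.08% in interval 10.

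**Figure D1:**
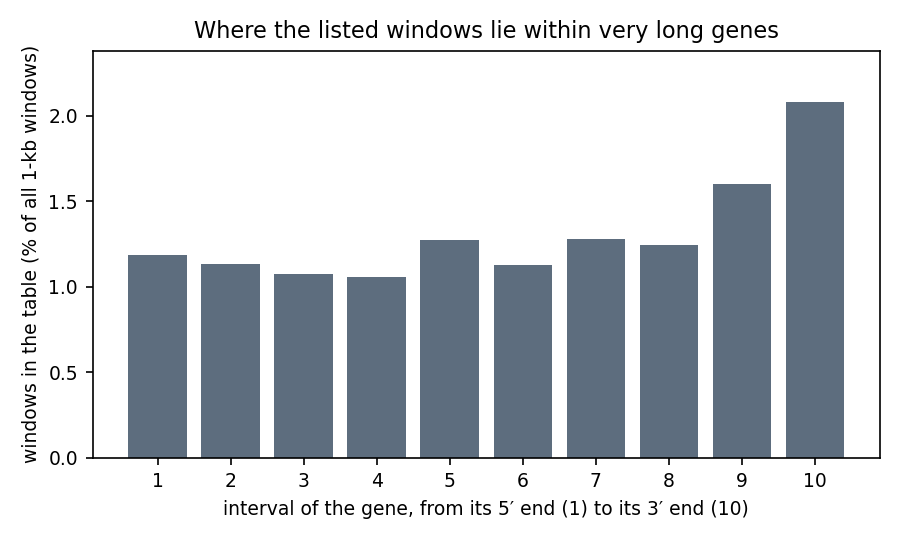
Percentage of the 1-kb positions of very long genes that were in the accessibility table (y axis), by interval of the gene from the 5′ end (1) to the 3′ end (10). Bars show values between 1.06% and 1.28% in intervals 1 to 8, and higher values of 1.60% and 2.08% in the last intervals.

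Library totals recovered from the table ranged from 8963079 reads (PEO1 replicate 3) to 60435027 (A2780 replicate 3), and the share of a library falling in the table from 8.38% (A2780 replicate 3) to 40.8% (PEO1 replicate 2). CP70 was the shallowest line in these windows, since 559 to 1304 of the 3553 held 3 reads or fewer in a CP70 library, compared with 2 to 15 in an A2780 library. Reads were counted without molecular identifiers, and limits set by read numbers cover counting error only. The start windows of the epithelial genes EPCAM, KRT8, KRT18 and CDH1 and of the Müllerian genes PAX8 and WT1 were highest in PEO1 or PEO4 and at most 1.10 FPKM in A2780, and those of the Müllerian genes SOX17 and EMX2 were highest in PEA2 and PEO4, while those of the blood, endothelial and fibroblast genes PTPRC, CD3E, VWF, COL1A1 and DCN were not in the table analysed here.

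Accessibility of the very long gene windows differed strongly between lines and was lowest in the A2780 pair. Taking the mean of 3 libraries, the median window had 2.54 FPKM in PEO1, 1.61 in PEO4, 1.28 in PEA2, 0.508 in PEA1, 0.362 in A2780 and 0.343 in CP70. The same medians over the whole table were 2.85, 2.24, 1.78, 1.20, 0.682 and 0.849 in that order. Medians of single libraries were 2.53, 2.53 and 2.56 in PEO1, 1.54, 1.63 and 1.64 in PEO4, 1.10, 1.24 and 1.43 in PEA2, 0.479, 0.513 and 0.530 in PEA1, 0.349, 0.361 and 0.380 in A2780, and 0.335, 0.359 and 0.379 in CP70. The libraries of A2780 and CP70 overlapped, and every other neighbouring pair of lines in this order was separate. In relation to the table median, the windows were lowest in CP70 (ratio 0.404) and PEA1 (0.424), intermediate in A2780 (0.532), PEO4 (0.717) and PEA2 (0.719), and highest in PEO1 (0.891).

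**Figure D2:**
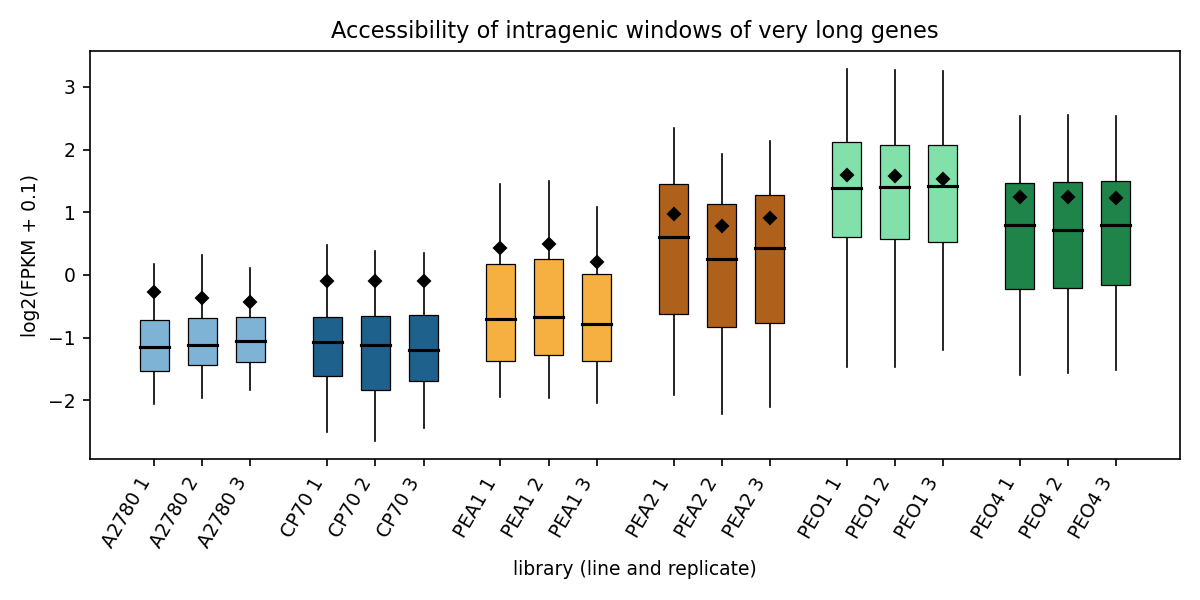
Accessibility of the 3553 windows in each of the 18 libraries, as log2(FPKM + 0.1) on the y axis; boxes span the quartiles with the median as a line, whiskers reach the 5th and 95th percentiles, and diamonds give the median of all 89428 windows. The diamond lies above the box median in all 18 libraries, by most in CP70 and PEA1 and by least in PEO1.

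Windows above 2 FPKM numbered 2343 in PEO1 (65.9%), 1471 in PEO4 (41.4%), 1229 in PEA2 (34.6%), 287 in PEA1 (8.08%), 65 in CP70 (1.83%) and 32 in A2780 (0.901%). Over the whole table these shares were 67.9%, 55.5%, 43.5%, 30.7%, 23.9% and 12.3%. As a ratio of shares, very long genes were thus furthest below the table in A2780 and CP70 and nearest to it in PEO1. Genes of 100 to 500 kb were also far below the table in A2780 (1.01%) and CP70 (2.88%), so the low shares there were not particular to very long genes. Of the 3553 windows, 1932 (54.4%) exceeded 2 FPKM in 1 line, against 37.3% of all windows, and 6 (0.169%) did so in all 6 lines, against 9.05%. Those exceeding it in 1 line did so in PEO1 in 987 cases, in PEA2 in 479, in PEO4 in 366, in PEA1 in 66, in CP70 in 23 and in A2780 in 11. PEO1 was the highest line at 2046 windows (57.6%, against 47.0% of the table), PEA2 at 699 (19.7%, against 16.4%) and PEO4 at 646 (18.2%, against 26.8%). The remaining windows were highest in PEA1 (114), CP70 (32) or A2780 (16).

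The 3 genes with the most widely accessible windows, by the lowest of the 6 line means, were TRAPPC9, HIVEP3 and DLGAP1, a scaffold protein of the postsynaptic density. The TRAPPC9 window had 4.11 ± 0.484 FPKM (SD, n = 3) in A2780, its lowest line, and 15.1 ± 1.10 in PEO4, its highest. The HIVEP3 window, whose sequence is given above, had 2.80 ± 0.363 in A2780 and 17.4 ± 2.41 in PEO4. The DLGAP1 window had 2.64 ± 0.432 in A2780 and 25.8 ± 0.941 in PEO1. These windows were GC-rich, with 63.8%, 69.8% and 55.9% GC against the median of 42.7%, and none overlapped an annotated exon.

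The order of accessibility among windows was most alike in the A2780 pair and least alike between the PEO lines and the others. The Spearman correlation over the 3553 line means was 0.73 between A2780 and CP70, 0.48 between PEA1 and PEA2 and 0.45 between PEO1 and PEO4, against 0.92, 0.49 and 0.71 over the whole table. Between either PEO line and any of the other 4 lines it ranged from -0.06 to 0.12 in very long genes and from 0.25 to 0.52 over the whole table. PEA1 was about as close to CP70 (0.45) and A2780 (0.40) as the lines of the PEO pair were to each other. With 32 windows above 2 FPKM in A2780 and 65 in CP70, the correlations of these lines rank mostly low values. These are descriptions across windows, which share libraries and neighbours and are not replicates, and all lines entered the selection of the table.

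The comparison of sensitive and resistant lines asks where chromatin accessibility changed with platinum resistance. The first measure was the share of all table reads that fell in very long gene windows, with 1 value per library. This share was 1.67%, 1.67% and 1.94% in the A2780 libraries and 1.14%, 1.33% and 1.36% in those of CP70. It was 1.87%, 1.87% and 1.95% in PEA1 and 2.98%, 3.04% and 3.19% in PEA2. It was 2.92%, 3.03% and 3.06% in PEO1 and 2.04%, 2.16% and 2.28% in PEO4. The resistant line was lower in the A2780 pair, by 0.486 percentage points, and in the PEO pair, by 0.844, and higher in the PEA pair, by 1.17, with no overlap between the libraries of a pair. Each of these 3 differences had an exact permutation p of 0.1 (two-sided, n = 3 against 3, adjusted p = 0.1 over 3 comparisons), the smallest p this design allows. The resistant-minus-sensitive difference of the PEA pair exceeded that of the PEO pair by 2.02 points (exact permutation p = 0.005, adjusted p = 0.0075), and that of the A2780 pair was 1.66 points below that of the PEA pair, a difference of -1.66 (exact permutation p = 0.005, adjusted p = 0.0075). The A2780 and PEO pairs differed by 0.358 points (exact permutation p = 0.465). Here 0.005 is the smallest p the 400 arrangements can give. They exchange libraries between the lines of each pair, so they assume no line difference in either pair and not equal differences. Taken instead of all reads of a library, the share in these windows was 0.156% to 0.168% in A2780 and 0.157% to 0.177% in CP70, which overlapped, so the fall in CP70 was seen relative to the reads in the table only. On this scale it was 0.250% to 0.315% in PEA1 and 0.508% to 0.661% in PEA2, and 1.19% to 1.21% in PEO1 and 0.732% to 0.748% in PEO4, in the same directions as before.

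Single windows were then compared on the log2(FPKM + 0.1) scale, on which the change of low windows is understated. A window was called where its log2 fold change between the lines of a pair exceeded 2 in size with a limma adjusted p below 0.001 over all windows tested, those whose 6 libraries in the pair averaged more than 1 FPKM. Of the 3553 windows, this filter kept 3054 for PEO, 1843 for PEA and 219 for A2780. A window high in 1 line of a pair passes more easily than one low in both, so the counts describe the windows that passed and not all windows. In all 3 pairs, every tested window with a fold change over 2 in size also passed the p threshold, so the fold threshold set the calls.

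In the PEA pair, accessibility of very long gene windows shifted towards the resistant line. Of 1843 windows tested, 553 (30.0%) were higher in PEA2, against 11.2% of all windows tested, and 36 (1.95%) were lower, against 1.42%. The calls lay in 166 genes in the higher and 21 genes in the lower direction. The median log2 fold change was 1.35 (quartiles 0.40 and 2.17), against 0.31 over all windows. The median was 0.99 in genes of 100 to 500 kb, 0.61 in genes of up to 100 kb and 1.52 in gene deserts, so that it rose with distance from starts and with lower GC content across the classes. Centring every library on its median over the table left 377 windows higher and 47 lower with a median of 0.98, and removing the trend with GC content within 20 classes left 153 higher and 89 lower with a median of 0.55. Subtracting the median fold change of all tested windows in the same 5-Mb bin left 175 higher and 38 lower. The same alternatives gave 4569 higher and 1797 lower, 2663 and 1874, and 2027 and 911 of the 66103 windows tested in all.

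The window with the largest rise was in IQCJ-SCHIP1 (chr3:158892300-158893300), a readthrough gene that includes SCHIP1, a binding partner of the NF2 tumour suppressor product. It had 0.128, 0.156 and 0.192 FPKM in PEA1 and 7.03, 3.81 and 6.21 in PEA2, a log2 fold change of 4.45 (SE 0.27, adjusted p = 6.25e-57 by limma). It was also low in A2780 (0.240 ± 0.0451), CP70 (0.0871 ± 0.0343) and PEO4 (0.261 ± 0.140) and at 1.20 ± 0.216 in PEO1. A window of TRAPPC9 rose from 0.865, 0.841 and 0.623 FPKM to 23.6, 14.0 and 17.5, a log2 fold change of 4.38 (SE 0.23, adjusted p = 2.03e-78 by limma). This window was also high in PEO1 (22.9 ± 0.897) and PEO4 (18.4 ± 1.13) and at most 0.484 FPKM on average in A2780 and CP70. In the other direction, the FRMD4A window printed above had 3.36, 4.39 and 3.45 FPKM in PEA1, whereas no PEA2 library held more than 3 reads, and it was at least 23.8-fold lower when PEA2 was set to 3 reads per library. The FRMD4A window lay in a 5-Mb bin whose 124 tested windows had a median log2 fold change of -1.55. A window of SLIT3 (chr5:168588000-168589000), a secreted guidance protein, fell from 9.55, 9.25 and 7.48 FPKM to 1.15, 0.462 and 0.754, a log2 fold change of -3.38 (SE 0.23, adjusted p = 2.27e-46 by limma). It was much higher in the PEO pair, at 20.1 ± 2.397 in PEO1 and 21.2 ± 0.475 in PEO4.

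In the PEO pair, the larger number of calls was in the opposite direction, towards lower accessibility in the resistant line. Of 3054 windows tested, 396 (13.0%) were lower in PEO4, against 5.78% of all windows tested, and 121 (3.96%) were higher, against 2.72%. The calls lay in 147 genes in the lower and 74 in the higher direction. The median log2 fold change was -0.80 (quartiles -1.50 and 0.02), against -0.30 over all windows, -0.67 and -0.33 in the shorter gene classes and -0.92 in gene deserts. After centring on library medians, 218 windows were lower and 185 higher with a median of -0.46, where all windows tested had 2523 lower and 3255 higher. With GC classes removed, the balance turned, with 159 lower and 215 higher, although the median of -0.29 was still below 0. It also turned after the 5-Mb bin medians were subtracted, with 103 lower and 163 higher. All windows tested turned likewise, with 2048 lower and 3049 higher for GC classes and 1396 lower and 2375 higher for bin medians.

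The largest fall was in CCSER1, a coiled-coil serine-rich protein at the fragile site FRA4F, in the window chr4:92279700-92280700. This window had 8.50, 10.2 and 7.36 FPKM in PEO1 and 0.0581, 0.144 and 0.0498 in PEO4, where it held 1 to 3 reads per library, against 66 to 117 in PEO1. With PEO4 set to 3 reads per library it was at least 55.7-fold lower. It was accessible in PEA1 (4.39 ± 1.03) and PEA2 (5.26 ± 1.02), and the 49 tested windows of its 5-Mb bin had a median log2 fold change of -1.78. A window of ST6GALNAC3 (chr1:76703400-76704400), a sialyltransferase, fell from 6.47, 4.89 and 4.79 FPKM to 0.174, 0.144 and 0.299, a log2 fold change of -4.18 (SE 0.29, adjusted p = 4.50e-15 by limma). Its bin had a median of -0.76 over 107 windows. Among the rises, a window of SPOCK1 (chr5:136466100-136467100), a secreted proteoglycan, held 0 to 3 reads per library in PEO1 and gave 5.99, 5.42 and 5.93 FPKM in PEO4, where it was at least 19.3-fold higher. It was also called higher in PEA2 than in PEA1, with a log2 fold change of 2.12 (SE 0.28, adjusted p = 8.22e-13 by limma). Its bin had a median of 0.07.

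**Figure D3:**
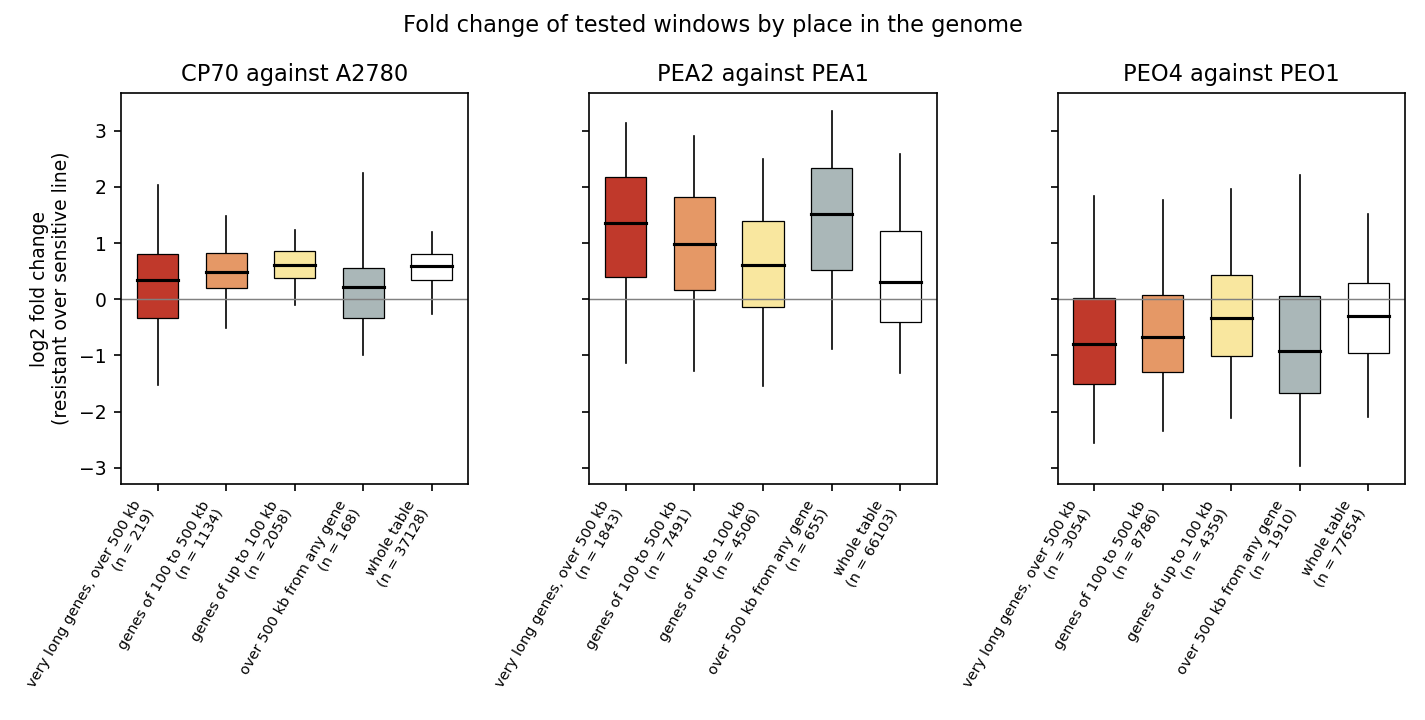
Log2 fold change of tested windows (y axis, resistant over sensitive line, log2(FPKM + 0.1) scale) in each pair, for windows of very long genes, of shorter genes, of gene deserts and of the whole table, with numbers of windows on the x axis; boxes span the quartiles and whiskers the 5th to 95th percentiles. Very long genes had medians of 1.35 (PEA pair), 0.34 (A2780 pair) and -0.80 (PEO pair), in each case between those of the shorter genes and of the gene deserts.

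In the A2780 pair few very long gene windows reached the tested level. Of 219 tested, 13 (5.94%) were higher in CP70, against 0.428% of all windows tested, and 7 (3.20%) were lower, against 0.369%. The 13 lay in 5 genes and the 7 in 6 genes, so neighbouring windows of the same gene made up part of the first count. The median log2 fold change was 0.34, below the 0.59 of all windows, and the quartiles of -0.34 and 0.81 were wider apart than those of all windows (0.34 and 0.81). The direction of the balance depended on the scaling, with 4 higher and 12 lower after centring, where the median was -0.24. The whole table turned with it, from 159 higher and 137 lower to 40 and 234 of 37128 windows. It depended also on CP70 replicate 1, without which 5 were higher and 8 lower, against 69 and 143 of all windows.

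The window with the largest rise lay in an intron of NLGN1, the synaptic adhesion protein neuroligin 1, with 0.279, 0.563 and 0.446 FPKM in A2780 and 9.85, 4.55 and 4.19 in CP70, a log2 fold change of 3.50 (SE 0.25, adjusted p = 4.80e-40 by limma). CP70 replicate 1 was the highest of the 3 by far, yet the lowest CP70 library was above every A2780 library, and the 4 other lines were between 0.269 and 0.472 FPKM on average. A window of RAD51B (chr14:68658300-68659300), a gene of homologous recombination, had 0.314, 0.361 and 0.215 FPKM in A2780 and 3.26, 1.38 and 1.63 in CP70, a log2 fold change of 2.39 (SE 0.33, adjusted p = 6.10e-11 by limma). It was no longer called after centring (1.81) or with a pseudocount of 0.5 FPKM (1.64). The RAD51B window was at 2.73 ± 0.904 in PEO1, 2.05 ± 0.164 in PEO4, 1.40 ± 0.317 in PEA2 and 1.10 ± 0.0897 in PEA1, so A2780 was the line that stood apart. In the other direction, a window of DLG2 (chr11:84613500-84614500), a scaffold of synapses, had 2.37, 3.40 and 2.00 FPKM in A2780 and 0.227, 0.359 and 0.0838 in CP70, a log2 fold change of -3.12 (SE 0.33, adjusted p = 2.43e-18 by limma). A window of PPP2R2B (chr5:146080800-146081800), a regulatory subunit of protein phosphatase 2A, had 2.28, 3.38 and 2.31 FPKM in A2780 and 0.455, 0.239 and 0.126 in CP70, a log2 fold change of -2.96 (SE 0.31, adjusted p = 8.30e-19 by limma). Both were at most 0.590 FPKM on average in the 4 HGSOC lines.

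Each line was also compared with the mean of the other 5 over all 18 libraries and all windows, with the same thresholds, to list windows particular in level to that line. A window could enter the table through the very line then called higher. Windows above 2 FPKM in 1 line only numbered 987 for PEO1, 479 for PEA2 and 366 for PEO4. The higher calls and their p-values thus describe the listed windows and are not independent of how these were selected. PEO1 was higher at 1603 of the 3553 windows (45.1%, against 21.8% of the table) and lower at 19 (0.535%, against 1.02%). PEO4 was higher at 687 (19.3%, against 11%) and lower at 22 (0.619%, against 0.418%). PEA2 was higher at 430 (12.1%, against 7.07%) and lower at 56 (1.58%, against 0.981%). These lines had the excess of higher calls. PEA1 was higher at 56 (1.58%, against 1.4%) and lower at 97 (2.73%, against 1.57%). CP70 was higher at 21 (0.591%, against 0.328%) and lower at 619 (17.4%, against 8.48%). A2780 was higher at 15 (0.422%, against 0.209%) and lower at 347 (9.77%, against 6.54%). The share of a library that fell in the table moved with these counts, since it was 38.9% to 40.8% in PEO1 and 8.38% to 10.0% in A2780, and its part in them was not tested. With library medians centred, the higher calls were 326 in PEO1, 251 in PEA2, 206 in PEO4, 87 in PEA1, 34 in CP70 and 27 in A2780, and PEO1, PEA2 and PEO4 kept the highest counts. The lower calls then numbered 228, 148, 130, 36, 82 and 6 in the same order, so that higher calls outnumbered lower ones in A2780 and PEA1, opposite to the balance without centring. Over the whole table the balance turned in the same way in these 2 lines, to 766 higher and 147 lower in A2780 and to 1899 and 595 in PEA1, and also in CP70, PEO1 and PEO4. With 5-Mb bin medians subtracted, the lower calls exceeded the higher ones in PEA2 (165 against 95) and in PEO1 (194 against 179), where the whole table had 1544 against 1210 and 4581 against 1243.

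The window with the largest excess in PEO1 was that of NAALADL2 printed above, with 43.6, 41.3 and 46.1 FPKM in the PEO1 libraries, the highest line mean of any window in very long genes. Its log2 difference from the other 5 lines was 5.08 (SE 0.19, limma adjusted p = 2.98e-29), although it was also high in PEO4 (9.40 ± 0.766) and PEA2 (8.72 ± 1.60) and at most 0.401 FPKM in A2780, CP70 and PEA1. A window of UNC13C (chr15:54872100-54873100), a synaptic vesicle priming protein, had 10.5, 11.8 and 11.4 FPKM in PEO1 and 1.58 ± 0.207 in PEO4, with at most 0.307 in the other lines. For PEO4, the LRP1B window had 6.39, 6.43 and 5.43 FPKM against 0.331 ± 0.293 in PEO1, a difference from the other 5 lines of 4.42 (SE 0.36, limma adjusted p = 5.63e-16). A window of DCC (chr18:50668200-50669200), the netrin receptor gene, was next with 12.4, 11.5 and 12.7 FPKM, but it was as high in PEO1, with 10.6, 12.7 and 11.1, and low in the other 4 lines. For PEA2, the WWOX window had 6.76, 4.74 and 5.10 FPKM, a difference of 4.20 (SE 0.28, limma adjusted p = 2.19e-18), and a window of DGKB (chr7:14486400-14487400), a diacylglycerol kinase, had 5.72, 3.41 and 4.79.

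Fewer windows were called higher in the other 3 lines. The FRMD4A window led in PEA1, with a difference of 3.17 (SE 0.29, limma adjusted p = 1.63e-13), followed by a window of FARS2 (chr6:5507100-5508100), the mitochondrial phenylalanyl-tRNA synthetase, with 3.30, 5.08 and 2.64 FPKM. In A2780 the LRBA window had 2.11, 2.97 and 2.26 FPKM, a difference of 3.37 (SE 0.34, limma adjusted p = 8.83e-13), and no other line exceeded 0.371 on average. A window of DNM3 (chr1:172113300-172114300), a dynamin GTPase, came next in A2780 with 4.38, 6.71 and 3.88 FPKM and was also the runner-up in CP70 with 7.88, 4.61 and 4.94. The A2780 and CP70 libraries overlapped at this window, and the other 4 lines were at most at 0.429 FPKM, so it set the A2780 pair apart from the HGSOC lines. The NLGN1 window led in CP70, with a difference of 3.70 (SE 0.28, limma adjusted p = 4.70e-17).

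At the level of genes, the FPKM of all windows of a gene that lay over 5 kb from starts were summed and 2519 genes with at least 3 such windows were fitted together, 273 of them very long. A gene was called at a log2 fold change over 1 in size and a limma adjusted p below 0.05. The sums had no filter on level, so they include windows too low to be tested singly. In the PEA pair 139 of the 273 (50.9%) were higher in PEA2, against 38.8% of all genes, and 10 (3.66%) were lower, against 4.29%. In the PEO pair 3 (1.10%) were higher in PEO4, against 4.92%, and 84 (30.8%) were lower, against 25.2%. In the A2780 pair 2 (0.733%) were higher in CP70, against 3.41%, and 12 (4.40%) were lower, against 1.87%. The median log2 fold changes were 1.01, -0.78 and -0.12 for PEA, PEO and A2780, against 0.74, -0.52 and 0.18 over all genes. Centring on library medians changed the counts to 59 higher and 33 lower for PEA, 16 and 31 for PEO and 2 and 23 for A2780, and subtracting bin medians to 45 and 13, 8 and 19, and 2 and 5. Over all genes these alternatives gave 410 and 396, 303 and 250, and 41 and 90 with centring, and 306 and 127, 114 and 151, and 8 and 23 with bin medians. A gene was given the bin of its midpoint, even where it reached into another bin. The bin median can include windows of the gene itself, so it is not independent of the gene. The PEA and PEO pairs share no library, and 51 genes were both higher in PEA2 and lower in PEO4, which is 36.7% of the 139 and 60.7% of the 84. Over all 2519 genes the corresponding number was 326, or 33.3% of those higher in PEA2 and 51.3% of those lower in PEO4. Among the 273 very long genes, the number called in both ways was 5 after centring and 4 after the bin medians were subtracted. It was not counted over all genes for these alternatives.

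The fragile-site genes CCSER1, FHIT and WWOX had different patterns. Levels of a gene are the mean FPKM over its windows. CCSER1 (chr4:91048545-92526446, 13 windows) was at 3.93, 3.96 and 4.15 in the PEO1 libraries and at 0.851, 0.923 and 1.09 in those of PEO4, with 10 windows above 2 FPKM in PEO1 and 2 in PEO4. CCSER1 thus changed by -2.07 on the log2 scale (SE 0.09, adjusted p = 7.06e-18 by limma). It was -0.48 after subtraction of the 5-Mb bin medians, which include windows of CCSER1 itself, and then no longer called. PEA1 (1.17 ± 0.290) and PEA2 (1.51 ± 0.242) overlapped, and A2780 (0.307 ± 0.0727) and CP70 (0.205 ± 0.0106) were lowest. FHIT (chr3:59733003-61237133, 6 windows), a diadenosine triphosphate hydrolase, was at 0.264, 0.465 and 0.467 in PEA1 and 1.57, 1.84 and 2.11 in PEA2, a log2 fold change of 2.19 (SE 0.20, adjusted p = 2.97e-27 by limma). It was 1.25 with bin medians subtracted. The PEO1 level of FHIT was 1.78 ± 0.0874 and that of PEO4 1.14 ± 0.0906, a log2 fold change of -0.64 that did not pass the fold threshold, and A2780 (0.345 ± 0.0277) and CP70 (0.351 ± 0.0573) overlapped.

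WWOX (chr16:78133297-79246564) had 3 adjoining windows, which together spanned chr16:78244200-78247000. They held 296, 197 and 270 reads in the PEA2 libraries, or 5.42, 3.80 and 3.99 FPKM on average. PEA1 held 58, 45 and 32 reads (0.619, 0.467 and 0.511 FPKM), and the log2 fold change of the PEA pair was 2.96 (SE 0.20, limma adjusted p = 2.74e-47), or 1.48 with bin medians subtracted. A2780 libraries held 54 to 80 reads and CP70 libraries 17 to 25. In the PEO pair the windows were almost without reads, with 1, 0 and 2 in the PEO1 libraries and 0 in all 3 PEO4 libraries. In PEO4, 3 reads would correspond to 0.144 to 0.174 FPKM in 1 window, so the depth was enough to show a level such as the 0.402 ± 0.0403 FPKM of A2780. No fold is given between PEO1 and PEO4, since both were at or under 3 reads. Among all very long genes this was the single run of 3 or more windows of 1 gene in which all libraries of a line held 0 reads.

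**Figure D4:**
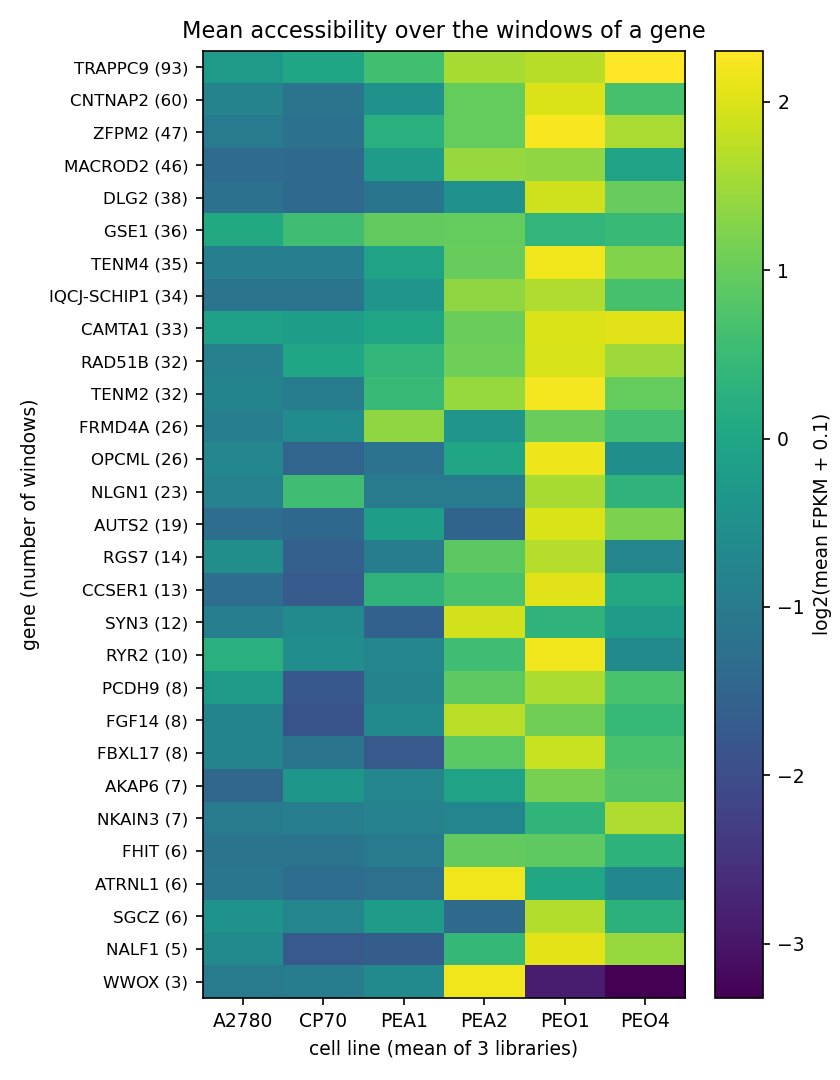
Mean accessibility over the windows of a gene, as log2(mean FPKM + 0.1) by colour, for named genes (rows, number of windows in parentheses) in the 6 lines (columns, mean of 3 libraries). PEO1 has the highest value in most rows, SYN3, ATRNL1 and WWOX are highest in PEA2, and WWOX is lowest in PEO1 and PEO4.

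Genes with the largest changes were taken from those with at least 5 windows. In PEA2 against PEA1, all 12 windows of SYN3, a synaptic vesicle phosphoprotein, were called higher in PEA2. Its level was 0.205, 0.222 and 0.280 in PEA1 and 3.13, 3.63 and 4.27 in PEA2, a log2 fold change of 3.92 (SE 0.19, adjusted p = 2.06e-86 by limma), which was 2.97 with bin medians subtracted. PEA1 was the lowest of the 6 lines in this gene, and 11 windows were above 2 FPKM in PEA2 against 1 in PEO1 and 1 in PEO4. All 6 windows of ATRNL1, an attractin-like membrane protein, were also called higher, from 0.270, 0.304 and 0.384 in PEA1 to 3.81, 4.21 and 5.33 in PEA2, a log2 fold change of 3.73 (SE 0.20), or 2.07 with bin medians subtracted. FBXL17, an F-box protein of a ubiquitin ligase, followed with 3.06 (SE 0.20), which was 0.42 with bin medians subtracted and then not called. ATRNL1 had 0 windows above 2 FPKM outside PEA2, and SYN3 had 0 in A2780, CP70 and PEA1. The windows of SYN3 and ATRNL1 thus entered the table mainly through PEA2, which favours higher calls in that line. Of the genes that fell, FRMD4A (26 windows) went from 2.03, 2.67 and 2.70 in PEA1 to 0.571, 0.696 and 0.710 in PEA2, a log2 fold change of -1.89 (SE 0.18, adjusted p = 1.23e-24 by limma), with 16 windows above 2 FPKM in PEA1 and 0 in PEA2. AUTS2, a chromatin regulator of neural development, changed by -1.61 (SE 0.19), from 0.782 FPKM in PEA1 to 0.249 in PEA2. SGCZ, a sarcoglycan, changed by -1.36 (SE 0.22), from 0.764 FPKM to 0.283. In this pair 2 of the 19 windows of AUTS2 and 1 of the 6 of SGCZ reached the tested level, and 0 were called lower. With bin medians subtracted the log2 fold changes were -0.64 for FRMD4A and -0.83 for AUTS2, then not called, and -1.57 for SGCZ.

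Between PEO1 and PEO4, OPCML, a cell adhesion protein of the IgLON family, had all 26 windows above 2 FPKM in PEO1 and 0 in PEO4. Its level was 4.26, 4.32 and 4.51 in PEO1 and 0.556, 0.569 and 0.660 in PEO4, a log2 fold change of -2.87 (SE 0.07, adjusted p = 1.44e-22 by limma), and 19 of its windows were called lower. It was -2.25 with bin medians subtracted, so OPCML was lower than its surroundings also. OPCML had 0 windows above 2 FPKM in A2780, CP70 and PEA1 and 2 in PEA2, so its windows entered the table mainly through PEO1. Such entry favours a fall from PEO1, and the counts describe the listed windows only. RYR2, the cardiac calcium release channel, fell from 4.22, 4.44 and 4.64 to 0.483, 0.533 and 0.583, a log2 fold change of -3.04 (SE 0.10, adjusted p = 5.02e-20 by limma), or -1.35 with bin medians subtracted. RGS7, a regulator of G-protein signalling on the same chromosome arm as RYR2, changed by -2.65 (SE 0.09), or -0.64 with bin medians subtracted and then not called. Of the 3 genes called higher in PEO4, the largest was NKAIN3, a partner of the sodium pump, from 1.11, 1.15 and 1.30 in PEO1 to 2.90, 3.02 and 3.09 in PEO4, a log2 fold change of 1.33 (SE 0.11, adjusted p = 3.82e-12 by limma). NKAIN3 kept its call with bin medians subtracted, at 1.67.

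NLGN1 was the gene with the largest rise in CP70 over A2780. Its 23 windows had a mean of 0.395, 0.473 and 0.518 FPKM in A2780 and 1.10, 1.10 and 2.01 in CP70, a log2 fold change of 1.54 (SE 0.19, adjusted p = 2.44e-07 by limma). The 7 windows above 2 FPKM in CP70 all lay at least 694 kb from the 5′ end of the 898-kb gene, while the 14 windows nearest that end were at most 0.344 FPKM in CP70. In PEO1, by contrast, 13 windows above 2 FPKM were spread along the gene. AKAP6, an anchoring protein of protein kinase A, was the other gene called higher, with 1.27 (SE 0.21), and was not called without CP70 replicate 1 (0.95). The 3 genes of at least 5 windows with the largest falls all lay on chromosome 13. PCDH9, a protocadherin, went from 0.601, 0.693 and 0.913 in A2780 to 0.0823, 0.173 and 0.313 in CP70, a log2 fold change of -2.04 (SE 0.26, adjusted p = 4.44e-07 by limma). FGF14, a modulator of sodium channels, changed by -1.40 (SE 0.19), from 0.481 FPKM in A2780 to 0.175 in CP70. NALF1, an auxiliary factor of the NALCN channel, changed by -1.37 (SE 0.22), from 0.533 FPKM to 0.196. These are low levels, since 0 windows of FGF14 and NALF1 and 2 of PCDH9 averaged more than 1 FPKM in the pair. After bin medians were subtracted PCDH9 was at -1.18, while FGF14 (-0.64) and NALF1 (-0.52) were no longer called.

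**Figure D5:**
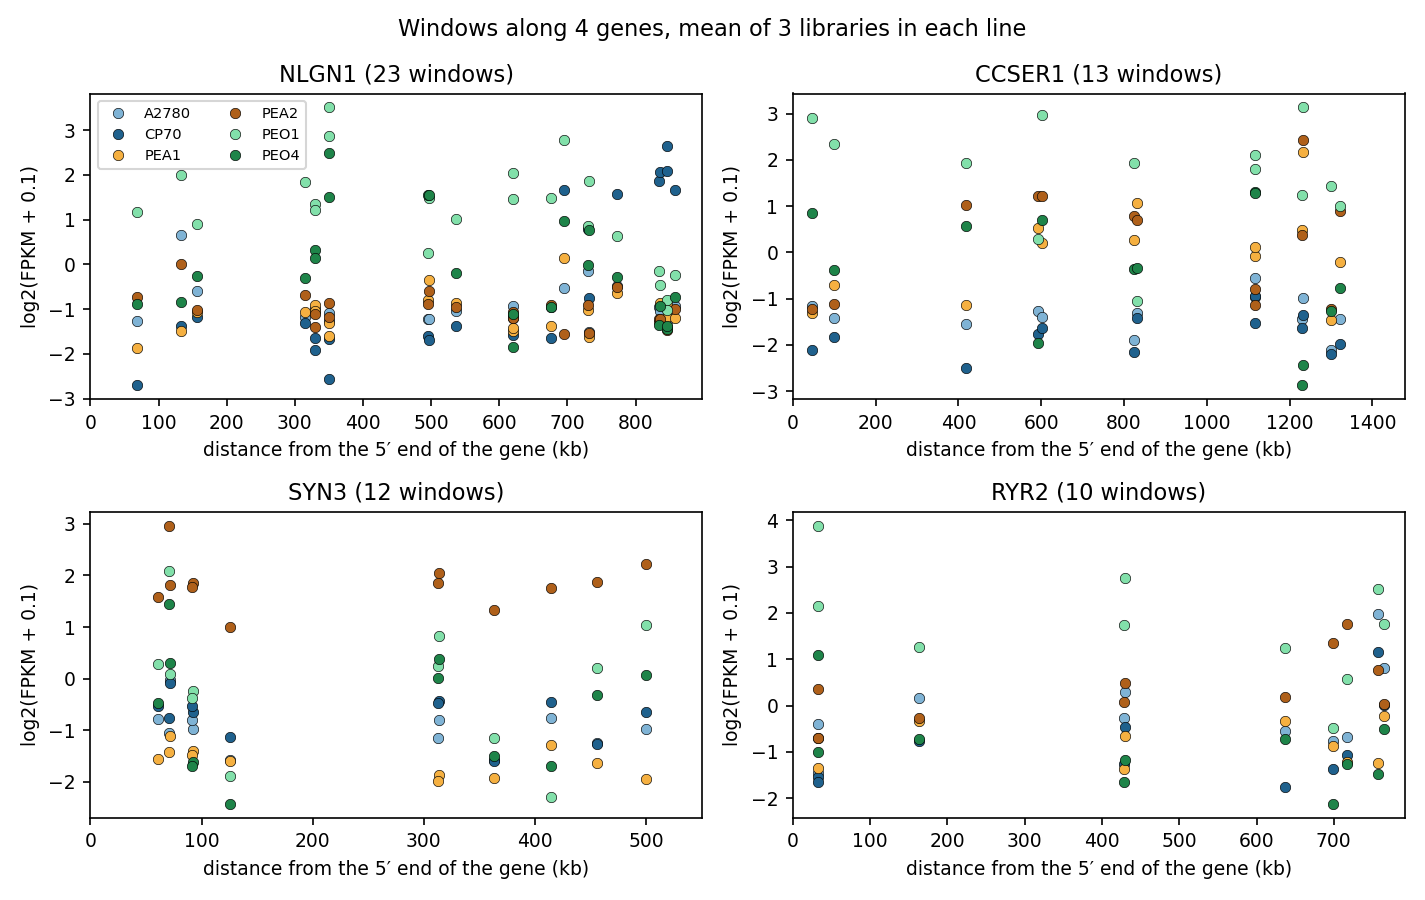
Accessibility of single windows, as log2(FPKM + 0.1) on the y axis (mean of 3 libraries per line, colours give the line), against distance in kb from the 5′ end of the gene, for NLGN1, CCSER1, SYN3 and RYR2. CP70 is high near the 3′ end of NLGN1, PEO1 is above PEO4 in 12 of the 13 windows of CCSER1, and PEA2 is above PEA1 in all 12 windows of SYN3.

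The genes with the most windows were intermediate in change. TRAPPC9 (93 windows) had a mean of 0.711 FPKM in A2780 and 4.83 in PEO4, its highest line, with 66 windows above 2 FPKM in PEO4, 46 in PEA2, 35 in PEO1, 9 in PEA1, 2 in CP70 and 2 in A2780. Its log2 fold change was 1.00 (SE 0.15) in the PEA pair, at the threshold, and 0.62 (SE 0.03) in the PEO pair, whereas it was -0.68 there with bin medians subtracted. CNTNAP2 (60 windows) changed by 1.54 (SE 0.17) in the PEA pair and -1.40 (SE 0.04) in the PEO pair, and MACROD2 (46 windows), a hydrolase of ADP-ribose modifications, by 1.78 (SE 0.17) and -1.56 (SE 0.06). Both genes were called in the 2 pairs in opposite directions. With bin medians subtracted these values were 0.18 and -0.52 for CNTNAP2 and 0.37 and 0.004 for MACROD2, none of them called. GSE1 (36 windows) was called in no pair, with means from 0.964 FPKM in A2780 to 1.87 in PEA2. RAD51B (32 windows) was at 0.442 in A2780 and 0.883 in CP70, a log2 fold change of 0.97 (SE 0.17) just under the threshold, and passed it without A2780 replicate 1 or without either of CP70 replicates 2 and 3.

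The very long genes were also grouped by role, and here each group is described by counts beside the background shares given above for all genes. Of the 273 very long genes, 50.9% were higher and 3.66% lower in PEA2, and 1.10% were higher and 30.8% lower in PEO4. In CP70 0.733% were higher and 4.40% lower. Their medians were 1.01 (PEA), -0.78 (PEO) and -0.12 (A2780). Differences of a group from these values were not tested. Fragile-site genes numbered 15 with 268 windows, which took 1.13% of their positions. Of these, 10 were higher in PEA2 than in PEA1 (among them FHIT, WWOX, MACROD2, IMMP2L, LRP1B, NAALADL2, CTNNA3, DPYD and CNTNAP2), 0 were lower and 5 were not called, with a median of 1.54 against 0.74 over all genes. Between PEO1 and PEO4, 5 were lower in PEO4, among them CCSER1, MACROD2, NAALADL2 and CNTNAP2, 1 was higher and 9 were not called, with a median of -0.94 against -0.52. Between A2780 and CP70, 0 of the 15 were called by limma, and the median was -0.35 against 0.18. 

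Adhesion and polarity genes with windows numbered 31 of 32 listed, 30 of them fitted. Between PEA1 and PEA2, 18 were higher in PEA2, among them the cadherins CDH13, CDH4 and CDH18, the receptor phosphatases PTPRG and PTPRD and the IgLON proteins LSAMP, NTM and OPCML, and 1 was lower (CTNNA2, a neuronal catenin). PEO4 was higher than PEO1 in 0 and lower in 7, namely CDH13, CDH18, CNTNAP2, NTM, OPCML, TENM2 and LPP. CP70 was lower than A2780 in NTM and higher in 0. Group medians were 1.20, -0.89 and -0.16 for PEA, PEO and A2780.

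Transcription and chromatin regulators numbered 17 with windows, 15 of them fitted. PEA2 was higher in 8 of them, namely MECOM, NPAS3, ZBTB20, ESRRG, SOX6, HDAC9, TSHZ2 and CAMTA1, and lower in AUTS2. PEO4 was higher in 0 and lower in 3, MECOM, ZBTB20 and the methyltransferase gene SMYD3. None of the 15 was called by limma in the A2780 pair, with a median of -0.25. MECOM and ZBTB20 encode zinc finger regulators.

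Signalling genes numbered 18. PEA2 was higher in 9, close to the 50.9% share of all very long genes, and lower in 0. The 9 included the receptor tyrosine kinases ERBB4, ALK and EPHA6, the phosphodiesterases PDE4D and PDE4B and the fibroblast growth factor homologues FGF12 and FGF14. PEO4 was lower in the phospholipase gene PLCB1 and the glypicans GPC5 and GPC6 and higher in 0. CP70 was lower in FGF14 and GPC6 and higher in 0. The medians of the group were 1.01 (PEA), -0.52 (PEO) and -0.32 (A2780).

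The last group, repair, trafficking and other genes, had 9 genes with windows, 8 of them fitted, and 193 windows, 93 of them in TRAPPC9. FHIT, WWOX, BCAS3, EXOC4 and TRAPPC9 were higher and FRMD4A was lower in PEA2. EXOC4, a subunit of the exocyst, was lower in PEO4 and 0 were higher. In CP70 against A2780, 0 of the 8 were called by limma, with a median of 0.17 against 0.18 over all genes. Genes can be in more than 1 group, as FHIT, WWOX and CNTNAP2 were.

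The limits of the rule on length and distance were examined without a test. Windows of genes of 500 to 550 kb, just inside the limit (n = 484), had medians of 0.381, 0.391, 0.668, 1.39, 2.398 and 1.56 FPKM in A2780, CP70, PEA1, PEA2, PEO1 and PEO4. Windows of genes up to 50 kb shorter than the limit, just outside it (n = 627), had 0.375, 0.354, 0.592, 1.67, 2.46 and 1.52. Windows 5 to 10 kb from a start (n = 148) had 0.368, 0.388, 0.585, 1.25, 2.58 and 1.46. Windows of the same genes under 5 kb from a start (n = 953) were higher in every line, with 0.835, 0.929, 1.59, 2.03, 3.997 and 2.52, and had a median GC content of 53.1%. The length limit thus separated windows of like level, and the distance limit kept out a more accessible class.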

How the data were processed

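The 18 ATAC-seq libraries, 3 per line, were grouped and numbered as labelled. The authors kept reads that Bowtie2 placed once in hg19, dropped duplicates (Picard), mitochondrial reads and blacklisted regions, and counted the rest in windows. The authors deposited FPKM values of 1-kb windows, which equal RPM (reads scaled to the library total), since all windows have the same length. Versions and any shift of read ends for the transposase are not given in the sources used here, and at 1 kb such a shift would matter little. Whole reads were recovered from the value of 1 read in each library, and 100% of the values came out whole. Chromosome steps of the table matched GRCh37 lengths at 23 of 23. Library totals ranged from 8963079 to 60435027 reads. Keeping uniquely placed reads can lower the signal in repeats, and scaling to library totals makes levels depend on the reads outside the table.

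For each pair, a limma 3.58.1 model (eBayes with a trend, R 4.3.3) was fitted to log2(FPKM + 0.1), over windows with a mean above 1 FPKM in the pair, with the fold and p thresholds of the study. The study used voom weights on counts, in place of which the trend was used here. The prior degrees of freedom were infinite in both PEA fits and in the A2780 window fit, so windows or genes of like level there shared 1 variance. They were finite in the PEO fits, in the A2780 gene fit and in the fit of all lines together. P-values are therefore not comparable between fits. Each line was compared with the mean of the other 5 over all windows, and genes were compared by summed FPKM. Benjamini-Hochberg adjustment ran over all windows or genes tested, and single values per library were compared by exact permutation tests. Only the window fit of the PEA pair was tested on simulated reads. The alternatives were other pseudocounts, filters, thresholds, scalings and length or distance limits, GC classes, 5-Mb bin medians, a replicate block, each library left out, and edgeR 4.0.16 (quasi-likelihood) on the recovered reads.

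The 2 called windows with the largest change in each pair and direction without overlap between libraries were named, with the 2 highest for each line and the 3 with the highest minimum line mean, at most 1 per gene. Genes named were CCSER1, FHIT and WWOX, the 10 with the most windows (11 with a tie) and up to 3 called genes with the largest change and at least 5 windows in each pair and direction. Members and lists were chosen with earlier results of these data known. Sequences were read from the GRCh37 reference, leaving out chromosome 8 and windows over untranslated regions. Some genes and 1 sequence that these rules select are not reported here.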

Additional observations from a re-analysis of the deposited data

Results flagged for a closer look

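The share of table reads in very long gene windows was marked for a closer look because the resistant-minus-sensitive difference was not the same in the 3 pairs. The PEA pair gave 1.17 percentage points and the PEO pair -0.844, and the difference between these pairs was 2.02 points (exact permutation p = 0.005, adjusted p = 0.0075, 6 libraries per pair). It was -0.486 points in the A2780 pair, and the difference of the A2780 pair from the PEA pair was -1.66 points (exact permutation p = 0.005, adjusted p = 0.0075). These p-values assume no line difference in either pair and not equal differences. All 3 PEA2 libraries were above all 3 PEA1 libraries, and all libraries of CP70 and PEO4 were below those of A2780 and PEO1. The share of a whole library that fell in the table was 17.1% to 20.7% in PEA2 and 12.9% to 16.8% in PEA1, and 32.9% to 35.9% in PEO4 and 38.9% to 40.8% in PEO1, so it moved in the same direction in these pairs, and its part in the result was not tested. In the A2780 pair it moved the other way, with 8.38% to 10.0% in A2780 and 11.8% to 15.6% in CP70. Taken of the whole library, the share in these windows overlapped between A2780 (0.156% to 0.168%) and CP70 (0.157% to 0.177%), so the fall in that pair was seen relative to table reads only, while the PEA and PEO pairs kept their directions. With windows over 10 kb from starts only, the differences were 1.13, -0.795 and -0.465 points in the PEA, PEO and A2780 pairs.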

How the results depend on the processing

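Counts of called windows are given as higher and lower in the resistant line of the A2780, PEA and PEO pairs in turn, where the reported counts were 13 and 7, 553 and 36, and 121 and 396. With thresholds of 1 and 0.05 they were 40 and 22, 1107 and 102, and 328 and 1310. With a pseudocount of 0.5 FPKM they were 4 and 2, 208 and 7, and 50 and 160, and with 1 FPKM 1 and 0, 52 and 3, and 10 and 63. With a minimum mean of 2 FPKM they were 3 and 0, 175 and 7, and 39 and 227. In genes over 800 kb they were 10 and 4, 241 and 18, and 48 and 216, since fewer windows were counted. Median centring gave 4 and 12, 377 and 47, and 185 and 218, quantile normalization 7 and 10, 272 and 62, and 184 and 226, GC classes 7 and 10, 153 and 89, and 215 and 159, and subtraction of 5-Mb bin medians 2 and 10, 175 and 38, and 163 and 103. Over all windows, the median log2 fold changes of 0.59, 0.31 and -0.30 became 0.01, -0.06 and 0.04 after median centring. No filter, the 10-kb limit, an upper limit on depth and edgeR (15 and 9, 625 and 40, and 136 and 461) stayed within 1.5 times. Leaving out each library gave 5 to 14 windows higher in CP70, 5 without CP70 replicate 1. It gave 5 to 8 lower, 391 to 603 higher and 24 to 39 lower in PEA2, and 105 to 126 higher and 355 to 408 lower in PEO4.

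Windows higher in 1 line than in the other 5, for A2780, CP70, PEA1, PEA2, PEO1 and PEO4, were 3, 6, 9, 100, 755 and 213 with a pseudocount of 0.5 FPKM, 2, 4, 16, 200, 1152 and 460 with a minimum mean of 1 FPKM over 18 libraries, 27, 34, 87, 251, 326 and 206 after centring, and 29, 34, 50, 95, 179 and 161 with bin medians subtracted. The lower calls of each line were added as a result after seeing the data and were 347, 619, 97, 56, 19 and 22. They became 56, 70, 5, 1, 0 and 1 with a pseudocount of 0.5 FPKM, 6, 82, 36, 148, 228 and 130 after centring, 7, 49, 18, 165, 194 and 74 with bin medians subtracted, and 10 in PEO1 and 11 in PEO4 with the minimum mean of 1 FPKM. Very long genes called higher and lower were 2 and 23, 59 and 33, and 16 and 31 after centring, and 2 and 5, 45 and 13, and 8 and 19 with bin medians subtracted. A pseudocount of 0.5 FPKM left 7 lower in CP70. Leaving out each library gave 1 to 4 genes higher in CP70, 1 without CP70 replicate 1 and 4 without CP70 replicate 2 or 3. Of the called log2 fold changes of named genes, subtraction of bin medians reversed that of MACROD2 in the PEO pair (0.0040) and those of PCDH9 (-0.48) and OPCML (-0.074) in the PEA pair. NLGN1, uncalled in the PEA pair at 0.073, was called lower at -1.36 with bin medians subtracted. The causes were not tested. Of the fold changes of named genes under the alternatives, 794 kept direction and call, 45 were uncalled throughout and changed sign (18 with bin medians subtracted, 11 after centring and 16 with a library left out), 40 lost the call and 17 gained it, and of those of named windows 463 kept it and 6 lost it. With the replicate number as a block all counts were the same, for example 13 and 7, 553 and 36, and 121 and 396 windows. A block cannot move the fold changes of this balanced design, and the fold threshold set the pair calls. Equal counts thus cannot show whether same-numbered libraries are paired. Such libraries had correlations of -0.41 to 0.04 within a pair, and the labels give only the number. Depth limits the A2780 pair most, since in CP70 up to 1304 of 3553 windows held 3 reads or fewer.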
